A study of Mus musculus with 8 samples.

Results

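Thalamic gene expression after MPTP alone was set against that after saline, on 4 of the 8 arrays of a study of needling in a mouse model of parkinsonism. The members were the 2 arrays of MPTP-treated mice that were not needled and the 2 arrays of control mice, chosen by their labels. All 15791 probe sets with a gene name that passed a brightness filter (mean log2 level of at least 5.63) were compared, and 13524 genes were counted once each through their brightest probe set. The mice were male C57BL/6, an inbred laboratory strain, 6 weeks old when they were taken in. Control mice received saline into the abdomen once a day for 4 weeks. MPTP mice received MPTP hydrochloride by the same route, 20 mg/kg as free base every 24 hr for 4 weeks. The other 4 arrays came from mice given the same MPTP and also needled, at acupoints of the lower leg and foot or at the hips, 14 times at 48 hr intervals. Each array held RNA from the thalamic tissue of both sides of the brain. How long after the last injection the tissue was taken is not given in the sources used here.

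MPTP is a fat-soluble toxin that enters the brain, where monoamine oxidase B, mainly in glia, turns it into the charged compound MPP+. The dopamine transporter carries MPP+ into dopaminergic neurons, where it blocks complex I of the mitochondrial respiratory chain, and the neurons of the substantia nigra are lost. The thalamus relays sensory and motor signals to the cortex and receives inhibitory output from the basal ganglia, whose balance depends on dopamine. It borders the third ventricle with its choroid plexus, the habenula, the hypothalamus and the midbrain, so thalamic tissue can carry RNA from these neighbours.

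Values are log2 levels, on which 1 unit is a 2-fold difference, and they are given for mouse 1 and then mouse 2 of a group. The median level per array lay between 6.18 and 6.29. All 30 listed genes of thalamic projection neurons passed the filter. So did all 24 listed for astrocytes, so passing the filter does not check the label of the tissue. Slc17a6, the vesicular glutamate transporter of relay neurons, stood at 11.23 and 11.16 in the control mice. Genes of other regions were also measured in the controls, among them Th, tyrosine hydroxylase, which sets the rate of dopamine synthesis, at 9.34 and 9.10, and Ttr, the transthyretin made by choroid plexus epithelium, at 12.05 and 12.27. In tissue of many cell types, fewer cells of a type and less RNA per cell cannot be told apart. The mice of a group are numbered in the labels, which do not say whether they were processed together.

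The MPTP mice were unlike each other. Over all probe sets the control mice correlated at r = 0.995, MPTP mouse 2 with them at 0.986 and 0.989, and MPTP mouse 1 with them at 0.911 and 0.905. MPTP mouse 1 correlated at 0.908 with MPTP mouse 2 and at 0.982 with the first mouse of the group needled at the hips, so 2 of the 8 arrays stood apart from the rest and only 1 of them is an MPTP array without needling. In MPTP mouse 1, 1244 genes lay over 1 log2 unit from the control mean, 730 above and 514 below. In MPTP mouse 2, 43 did, 29 above and 14 below, and between the control mice 1 gene differed by that much. The median absolute difference from the control mean was 0.37 in MPTP mouse 1 and 0.11 in MPTP mouse 2, against 0.083 between the control mice and 0.38 between the MPTP mice. The mice are therefore given separately. The p-values rest on a spread pooled over the 4 groups, which includes both arrays that stood apart.

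No probe set passed an adjusted p under 0.05 (limma on all 8 arrays, Benjamini-Hochberg, smallest adjusted p = 0.0941), while 836 (5.29%) had an unadjusted p under 0.05. Of genes counted once, 756 (5.59%) reached that unadjusted level: 472 (3.49%) were higher and 284 (2.1%) lower. The groups did not overlap in 6087 probe sets (38.5%). The same was true of 5234 genes (38.7%): both MPTP mice lay above both controls in 2513 (18.6%) and below both in 2721 (20.1%). They lay on opposite sides of the controls in most of the remaining genes: mouse 1 above and mouse 2 below in 2463 (18.2%), mouse 1 below and mouse 2 above in 2058 (15.2%). Groups that do not overlap were therefore common, and a count of them in a gene list is read against these shares. By size, 19 genes had both MPTP mice over 1 log2 unit above both controls, with 1 gene likewise below. In a fit of 6 arrays that left out MPTP mouse 1 and hip-needled mouse 1, MPTP mouse 2 stood alone against the controls and was assumed to vary like the other groups; 57 probe sets (0.361%) then passed an adjusted p under 0.05. Leaving out MPTP mouse 1 alone gave 0, with a smallest adjusted p of 0.441 and 588 at an unadjusted p under 0.05.

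**Figure D1:**
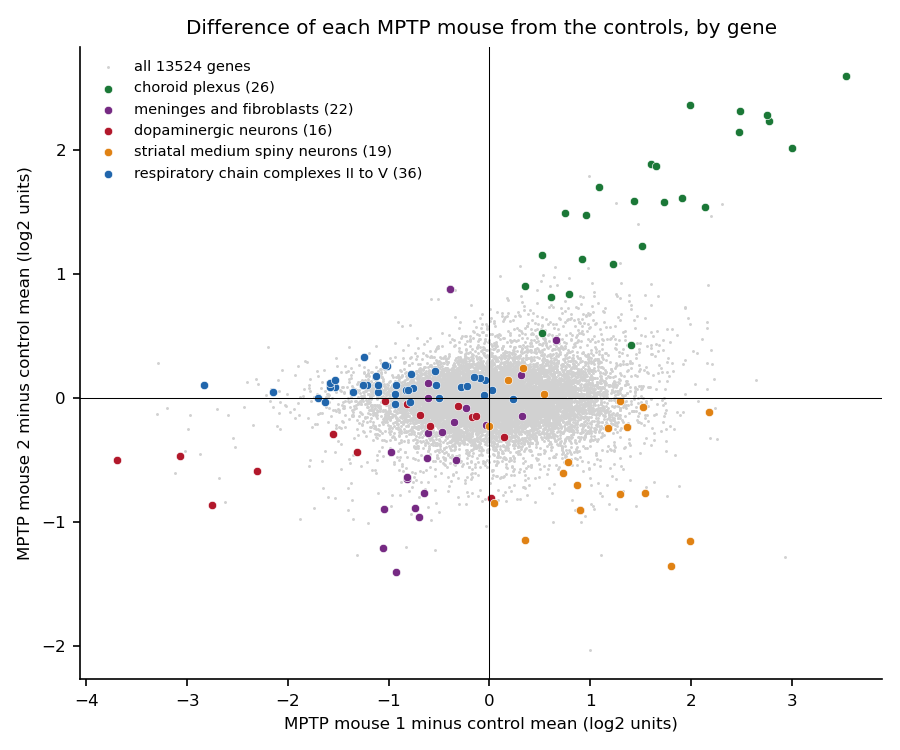
Each point is a gene, placed by its log2 difference from the control mean in MPTP mouse 1 (horizontal axis) and in MPTP mouse 2 (vertical axis); grey points are all 13524 genes and colours mark 5 gene lists. Choroid plexus genes lie at the upper right, high in both mice, dopaminergic genes reach far to the left in mouse 1, striatal genes lie to the lower right, and respiratory chain genes spread to the left at nearly no difference in mouse 2.

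Choroid plexus genes, from the epithelium in the ventricles that makes cerebrospinal fluid, stood highest above the controls, and they did so in both MPTP mice. Of 31 listed genes 26 passed the filter; 5 of these had a control mean under the filter's level and passed it through other groups, so the list's counts are a description of bright members. Both MPTP mice lay above both controls in 25 of the 26, against 18.6% of all genes. The list was chosen with earlier results of these data known, so this count is no independent evidence. The median difference was 1.45, with 1.47 in mouse 1 and 1.56 in mouse 2, against a median of -0.01 over all genes. The unadjusted p was under 0.05 in 22, all higher, against 3.49% higher over all genes, and 0 passed after adjustment.

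Kcnj13, an inwardly rectifying potassium channel of the epithelium's apical face, stood at 7.50 and 7.56 in the control mice and at 11.07 and 10.13 in the MPTP mice. Both MPTP mice were far above the controls, by 3.07 ± 0.35 (SE) on the log2 scale, an 8.39-fold difference (limma, Benjamini-Hochberg adjusted p = 0.198). Cldn1, a claudin of tight junctions, read 5.75 and 5.74 against 7.48 and 7.33. Its difference of 1.66 ± 0.13 (SE) had the smallest adjusted p of all probe sets, 0.0941 in limma with Benjamini-Hochberg adjustment. The groups of Folr1, the folate receptor that carries folate into cerebrospinal fluid, were as clearly apart, at 6.61 and 6.77 in controls and 8.29 and 8.58 after MPTP. Car12, a membrane carbonic anhydrase, was at 6.34 and 6.45 in controls and at 9.17 and 8.64 after MPTP. Sostdc1, a secreted antagonist of BMP and Wnt signals, was at 6.47 and 6.32 and then at 8.38 and 8.76. In each of these genes the lower MPTP mouse stood over 1.5 log2 units above the higher control.

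The same held for secreted and transport proteins. Kl, the membrane protein Klotho, was at 6.26 and 6.51 in the control mice and at 8.85 and 8.53 in the MPTP mice. Clic6, a chloride intracellular channel protein, was at 6.74 and 6.53, then 9.12 and 8.95. F5, coagulation factor V, was at 4.93 and 5.18, under the filter's level, and at 8.06 and 7.07 after MPTP; Steap1, a metalloreductase, was likewise dim in controls, at 4.52 and 5.17, and at 7.60 and 7.12 after MPTP. A control value under the filter's level is close to the array's background, so the size of such a difference is uncertain. Lbp, which binds bacterial lipopolysaccharide, had 7.18 and 7.24 in controls and 8.86 and 9.08 in the MPTP mice. The brightest member, Ttr, was less far apart, at 12.05 and 12.27 against 12.91 and 13.65, with a difference of 1.12 ± 0.78 (SE). Igfbp2, which binds insulin-like growth factors and is also made by meninges, was the exception, at 8.33 and 8.32 in controls, 7.93 in MPTP mouse 1 and 9.20 in MPTP mouse 2.

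The other mice given MPTP did not share 1 level of this epithelium. Against the same control mice, the list's median difference was 1.00 and 1.45 in the mice needled at acupoints and -0.49 and -0.57 in those needled at the hips. Ttr was at 13.36 and 13.53 in the former and at 5.72 and 8.39 in the latter. Kcnj13 was at 9.40 and 10.02 and at 4.91 and 5.30. All 6 of these mice received MPTP, so the level of choroid plexus genes split them by group. What part the amount of choroid plexus in each piece of tissue had was not tested.

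**Figure D2:**
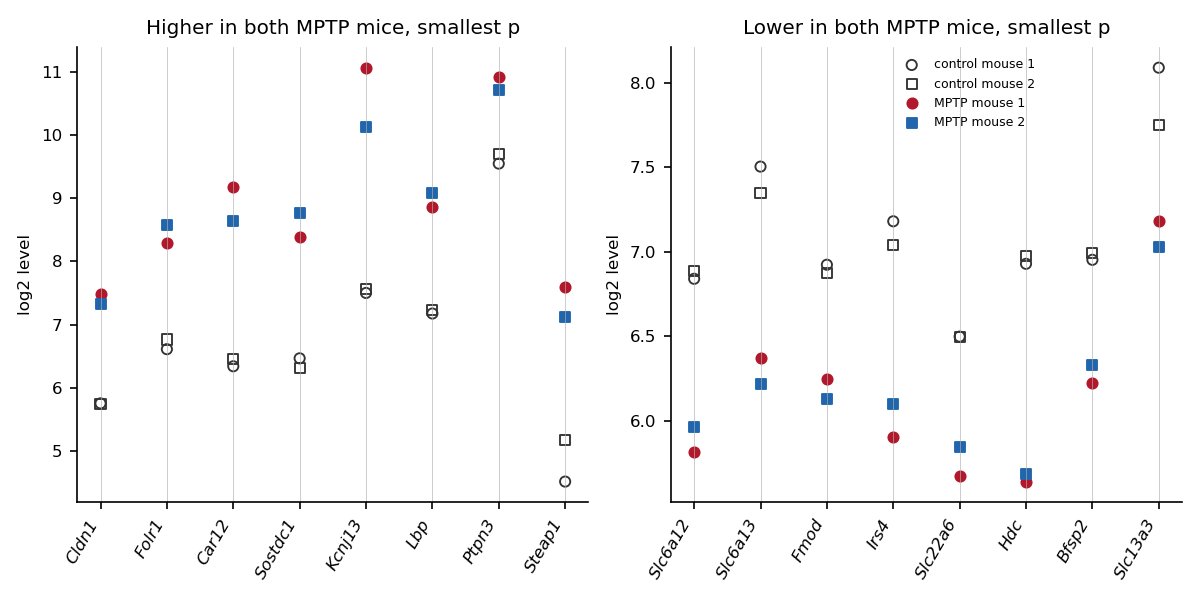
Log2 level on each of the 4 arrays (vertical axis) of the 8 higher and the 8 lower genes of smallest p whose groups do not overlap; open symbols are control mice, filled symbols MPTP mice, with circles for mouse 1 and squares for mouse 2. The mice of a group lie close together in some genes, as for Cldn1 at 5.75 and 5.74 in controls and at 7.48 and 7.33 after MPTP, and farther apart in others, as for the MPTP mice in Kcnj13 at 11.07 and 10.13.

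Among the higher genes of smallest p, 1 was no choroid plexus gene by the list, which was chosen with earlier results of these data known. This was Ptpn3, a protein tyrosine phosphatase, at 9.55 and 9.70 in the control mice and 10.92 and 10.72 in the MPTP mice. It lay above both controls in the needled mice too, at 11.16 and 11.08 and at 11.06 and 10.87. Its difference was 1.19 ± 0.15 (SE), with an adjusted p of 0.235 in limma (Benjamini-Hochberg).

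Genes of thalamic projection neurons were mostly higher in the MPTP mice. Both mice lay above both controls in 21 of 30, against 18.6% of all genes. The median difference was 0.52, with 0.37 in mouse 1 and 0.49 in mouse 2. The unadjusted p was under 0.05 in 16, all higher, against 3.49% higher over all genes, and 0 passed after adjustment. The list's median in the needled mice, against the same controls, was 0.78 and 0.72 after acupoint needling and 0.56 and 0.53 after hip needling.

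Signalling proteins of relay neurons were among the members of smallest p. Vav3, a guanine nucleotide exchange factor for small GTPases, stood at 7.89 and 7.98 in the control mice and at 9.07 and 8.63 in the MPTP mice. Rasgrp1, an activator of Ras, was at 10.25 and 10.37, then 11.44 and 11.01. Prkcd, the delta isoform of protein kinase C, was at 10.74 and 10.90, then 11.47 and 11.88. In these 3 genes both MPTP mice were above both controls, and the mouse with the higher value was not always the same. Prkcd lay 0.65 above the control mean in MPTP mouse 1 and 1.06 above it in MPTP mouse 2.

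Transcription factors and a surface protein that mark the thalamus were also above the controls in both mice. Tcf7l2, a Wnt effector that specifies thalamic neurons, was at 9.39 and 9.47 in controls and at 10.48 and 10.03 in the MPTP mice. Rora, a nuclear receptor, was at 9.89 and 9.96, then 10.31 and 10.60. Lef1, a partner of the same pathway as Tcf7l2, was at 8.07 and 8.15, then 8.94 and 8.46. Ntng1, a netrin-like cell surface protein of thalamic axons, was at 9.65 and 9.65, then 10.72 and 10.42. The groups did not overlap in any of these 4.

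The transmitter gene of the same neurons stood apart from this direction. Slc17a6 was at 11.23 and 11.16 in controls, 10.97 in MPTP mouse 1 and 11.41 in MPTP mouse 2, on either side of the controls. Its cortical counterpart Slc17a7, the vesicular glutamate transporter of cortical neurons that some thalamic nuclei also use, was at 8.94 and 9.03 in controls and lay 1.02 and 0.93 above their mean in the MPTP mice, a difference of 0.97 ± 0.14 (SE; limma, Benjamini-Hochberg adjusted p = 0.293). Of 22 genes listed for cortex and hippocampus, 5 had both MPTP mice above and 6 below the controls, against 18.6% and 20.1% of all genes. Their median was 0.01 (0.40 in mouse 1 and -0.20 in mouse 2). Besides Slc17a7, Prox1, a homeobox gene of dentate granule cells and also of thalamus, stood at 7.86 and 7.86 and then at 9.80 and 8.59.

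Inhibitory neurons of and around the thalamus showed no common direction. Of 14 listed genes both mice were above in 2 and below in 5, against 18.6% and 20.1% of all genes, with a median of -0.06. Gata3, a transcription factor of midbrain and other ventral inhibitory neurons, was lowest, at 7.18 and 7.01 in controls and 5.56 and 6.28 after MPTP. Sox14, which marks thalamic and pretectal interneurons, was at 6.59 and 6.87, then 5.77 and 6.28. The general markers of inhibitory neurons lay close to the controls: Gad1, a glutamate decarboxylase that makes GABA, read 10.76 and 10.77 and then 10.79 and 10.84.

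Genes of the dopaminergic neurons that MPTP harms were lower in both MPTP mice, but to very different degrees. Of 21 listed genes 16 passed the filter. Both mice lay below both controls in 12 of them and above in 0, against 20.1% and 18.6% of all genes. The median difference was -0.42, with -0.75 in mouse 1 and -0.31 in mouse 2. The unadjusted p was under 0.05 in 2, Slc18a2 and Chrna6, both lower, against 2.1% lower over all genes.

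The proteins that make, carry and store dopamine showed the split most clearly. Slc6a3, the dopamine transporter, stood at 9.96 and 9.83 in the control mice, at 6.20 in MPTP mouse 1 and at 9.39 in MPTP mouse 2. Mouse 2 was thus slightly below the controls and mouse 1 far below, and the difference of -2.10 had an SE of 0.95 (limma, Benjamini-Hochberg adjusted p = 0.714). Th was at 9.34 and 9.10, then 6.15 and 8.75. Slc18a2, the vesicular monoamine transporter, was at 9.24 and 8.95, then 6.34 and 8.23. Ddc, which turns L-DOPA into dopamine, was at 8.91 and 8.64, then 7.23 and 8.48. In each of these 4 genes MPTP mouse 1 was the lowest of the 4 arrays by over 1 log2 unit, while MPTP mouse 2 lay below both controls but nearer to them than to mouse 1.

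Receptors and transcription factors of the same cells followed the same order of mice. Chrna6, a nicotinic receptor subunit of midbrain dopaminergic neurons, was at 7.52 and 7.31, then 5.10 and 6.82. Pitx3, a homeobox gene of these neurons, was at 6.45 and 6.52, then 5.67 and 6.43. Lmx1b, a factor that specifies the ventral midbrain, was at 7.02 and 7.16, then 6.40 and 6.95. Foxa2, another such factor, was at 6.94 and 6.67, then 6.22 and 6.58. Not every member followed. Drd2, a dopamine receptor of both nigral and striatal neurons, was at 8.58 and 8.43 in controls, 9.41 in mouse 1 and 7.60 in mouse 2, and Ret, the signalling receptor for GDNF-family factors, was at 8.56 and 8.43, then 8.18 and 8.43.

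The 4 needled mice lay far below MPTP mouse 2 in the genes of dopamine synthesis and uptake. Slc6a3 was at 6.10 and 6.09 after acupoint needling and at 6.64 and 7.83 after hip needling, and Th at 5.97 and 6.22 and at 6.72 and 7.40. The list's median difference from the same controls was -0.89 and -0.84 and then -0.69 and -0.73. MPTP mouse 2 therefore had the highest levels of Th and Slc6a3 among the 6 mice given MPTP. The list of midbrain and other ventral neighbours had medians of -0.64 in MPTP mouse 1 and -0.03 in MPTP mouse 2. What part the amount of midbrain in each piece of tissue had was not tested.

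**Figure D3:**
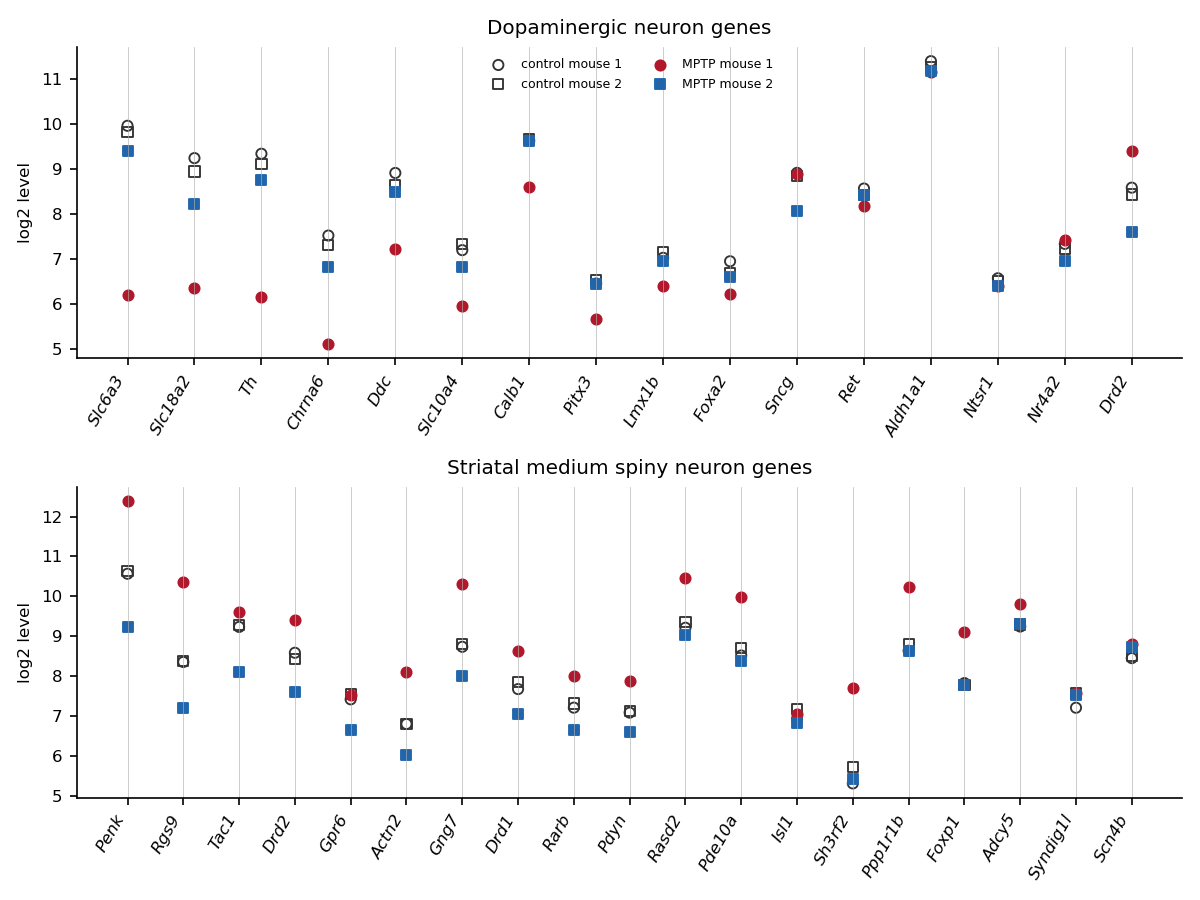
Log2 level on each of the 4 arrays (vertical axis) of the 16 dopaminergic genes, ordered by the mean difference (upper panel), and of the 19 striatal genes, ordered by the difference of MPTP mouse 2 (lower panel); open symbols are control mice, filled symbols MPTP mice. In the upper panel MPTP mouse 1 lies far below the rest for Slc6a3, Slc18a2, Th and Chrna6. In the lower panel MPTP mouse 1 lies above and MPTP mouse 2 below the controls in 12 of 19 genes, against 18.2% of all genes. Penk, at 12.40 and 9.24, is an example.

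Genes of the hypothalamus lay mostly below the controls too. For the hypothalamus 25 of 30 genes passed the filter. Both MPTP mice lay below both controls in 18 of them and above in 1, against 20.1% and 18.6% of all genes. The median was -0.41, with -0.56 in mouse 1 and -0.23 in mouse 2. Hdc, the histidine decarboxylase of histamine neurons, stood at 6.93 and 6.98 in controls and at 5.64 and 5.69 in the MPTP mice, a difference of -1.29 ± 0.23 (SE; limma, Benjamini-Hochberg adjusted p = 0.452). Irs4, an insulin receptor substrate, was at 7.18 and 7.04, then 5.91 and 6.10. In both genes the MPTP mice were close to each other and about 1 log2 unit or more below the controls.

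Hormones of the magnocellular neurons and other peptides were lower with a wider gap between the mice. Oxt, oxytocin, was at 9.07 and 9.05, then 7.18 and 8.08, and Avp, vasopressin, at 8.07 and 7.80, then 6.34 and 7.13. Cartpt, a peptide of feeding circuits, was at 8.97 and 8.93, then 6.32 and 8.10. The peptides of the lateral hypothalamus parted the mice instead: Hcrt, orexin, was at 8.94 and 9.16 in controls, 6.85 in mouse 1 and 9.46 in mouse 2, and Pmch, melanin-concentrating hormone, was at 10.14 and 10.18, then 7.76 and 10.29. MPTP mouse 1 was thus low in every peptide named here, and mouse 2 was above the controls in Hcrt and Pmch.

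Over the opioid and other neuropeptide genes both mice were below the controls in 11 of 19 and above in 0. Over all genes the shares were 20.1% and 18.6%. The list's median was -0.18. Grp, gastrin-releasing peptide, was at 6.83 and 6.78, then 6.13 and 6.45. Adcyap1, the peptide PACAP, was at 7.89 and 7.64, then 6.41 and 7.30. Genes of the midbrain and other ventral neighbours were lower in mouse 1 (median -0.64) and near the controls in mouse 2 (-0.03). Both mice were below the controls in 6 of 16 and above in 2, against 20.1% and 18.6% of all genes. The median difference of -0.33 became 0.11 with the dimmest 60% of probe sets left out. Lhx5, a homeobox gene of ventral diencephalic neurons, was the lowest of them, at 6.35 and 6.31, then 4.86 and 5.75, and Mab21l2, named by its distance from the controls, was at 7.27 and 7.18, then 5.87 and 6.24. The 2 above were Otx2, a homeobox gene that is also on the choroid plexus list, at 7.38 and 7.13, then 8.05 and 8.10, and Foxp2, a forkhead factor, at 7.94 and 7.68, then 8.68 and 8.15. Whether less of these neighbouring regions was in the tissue of the MPTP mice was not tested.

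Genes of meninges and fibroblasts, the sheets of connective tissue around the brain, were lower in both mice. Both lay below both controls in 14 of 22 and above in 2, against 20.1% and 18.6% of all genes. The median was -0.43, with -0.61 in mouse 1 and -0.36 in mouse 2. The unadjusted p was under 0.05 in 13 lower and 1 higher member, against 2.1% lower and 3.49% higher over all genes. Slc6a13, a GABA transporter of the leptomeninges, stood at 7.50 and 7.35 in controls and at 6.37 and 6.22 after MPTP, and its near relative Slc6a12, the betaine transporter, at 6.84 and 6.89 and then 5.82 and 5.97. These were the lower genes of smallest p, with differences of -1.13 ± 0.19 and -0.97 ± 0.16 (SE) and an adjusted p of 0.432 for both in limma (Benjamini-Hochberg). MPTP mouse 2 taken alone differed from the control mean by -1.21 in Slc6a13 and by -0.90 in Slc6a12.

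Transporters of organic acids were lower beside them: Slc22a6 was at 6.50 and 6.50, then 5.68 and 5.84, and Slc13a3 at 8.09 and 7.75, then 7.18 and 7.03. Matrix genes were lower by less. Fmod, the collagen-binding fibromodulin, was at 6.92 and 6.88, then 6.25 and 6.13; Col1a2, a chain of type I collagen, was at 7.48 and 7.49, then 7.01 and 7.21. Aldh1a2, which makes retinoic acid in meninges, was at 7.31 and 6.86, then 6.16 and 5.68. Igf2, a growth factor that choroid plexus also makes, went the other way, at 8.47 and 8.40, then 9.10 and 8.90. Bfsp2, a filament protein best known from the lens, was the remaining lower gene of smallest p, at 6.95 and 6.99, then 6.22 and 6.33. The meningeal list was low in the needled mice as well, with medians of -0.34 and -0.29 after acupoint needling and -0.91 and -0.70 after hip needling.

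**Figure D4:**
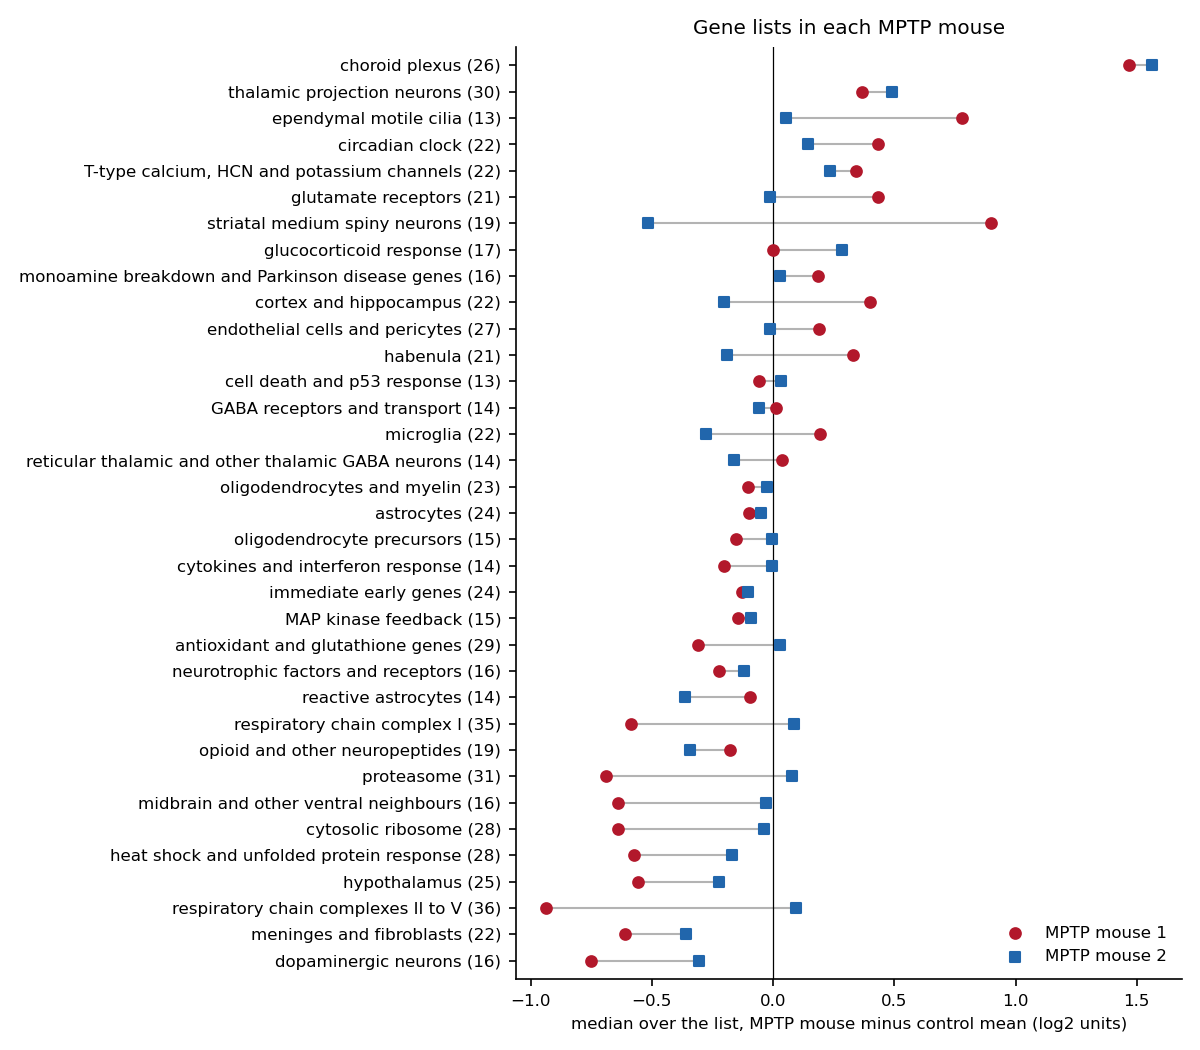
Median log2 difference from the control mean over each gene list (horizontal axis), with the number of genes that passed the filter in brackets; circles are MPTP mouse 1 and squares MPTP mouse 2. The choroid plexus list lies at 1.47 and 1.56, both mice together, while the striatal list lies at 0.90 and -0.52 and the list of respiratory chain complexes II to V at -0.94 and 0.09.

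Striatal genes separated the MPTP mice in opposite directions. Of 19 genes of medium spiny neurons, the inhibitory output neurons of the striatum and a main target of dopamine, mouse 1 was above and mouse 2 below both controls in 12; both were above in 2 and both below in 0. Over all genes mouse 1 was above and mouse 2 below both controls in 18.2%, both were above in 18.6% and both below in 20.1%. The list's median was 0.90 in mouse 1 and -0.52 in mouse 2. A mean over the group hides this, since it gave 0.26.

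Penk, the precursor of enkephalins, stood at 10.56 and 10.63 in the control mice, at 12.40 in MPTP mouse 1 and at 9.24 in MPTP mouse 2. Rgs9, a regulator of dopamine receptor signalling, was at 8.35 and 8.38, then 10.36 and 7.21. Drd1, a dopamine receptor, was at 7.67 and 7.85, then 8.63 and 7.06. The MPTP mice lay over 1.5 log2 units apart in these genes and the control mice under 0.2. Ano3, a member of the anoctamin family named for the same pattern, was at 7.47 and 7.67, then 10.51 and 6.28, the widest gap of those named. Lamp5, a membrane protein of forebrain neurons, was at 7.97 and 8.08, then 9.13 and 6.76. The enzyme Gda, which deaminates guanine, was at 7.92 and 7.86, then 8.89 and 5.85, and the receptor Gpr83 was at 7.50 and 7.57, then 8.49 and 6.58.

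The needled mice also varied in Penk, at 8.52 and 10.74 after acupoint needling and 10.90 and 10.08 after hip needling. The cause of the split was not tested, and no label says how the thalamus was bounded in each mouse.

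Of the 21 genes of the habenula, a small nucleus on top of the thalamus, 11 had mouse 1 above and mouse 2 below the controls. Both mice were below in 7 and above in 1. Over all genes these shares were 18.2%, 20.1% and 18.6%. The medians were 0.33 in mouse 1 and -0.19 in mouse 2. Chrna3, a nicotinic subunit, was at 6.26 and 6.27, then 7.50 and 5.73, and Slc5a7, the choline transporter of cholinergic neurons, at 6.37 and 6.44, then 7.64 and 5.98. Gpr151, a receptor of habenular neurons, was higher in both, at 5.15 and 5.19, then 6.56 and 5.95, from control values under the filter's level. Irx2, a homeobox gene, was lower in both, at 7.80 and 7.71, then 6.99 and 7.49.

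Genes of the mitochondrial respiratory chain were low in MPTP mouse 1 and near or slightly above the controls in MPTP mouse 2. For complex I, the enzyme that MPP+ blocks, mouse 1 was below and mouse 2 above both controls in 21 of 35, and both mice were below in 3 and above in 2. The median was -0.59 in mouse 1 and 0.09 in mouse 2. For complexes II to V mouse 1 was below and mouse 2 above in 28 of 36, with medians of -0.94 and 0.09. Over all genes mouse 1 was below and mouse 2 above in 15.2%, both mice were below in 20.1% and both above in 18.6%. In hip-needled mouse 1, the other array that stood apart, the medians were -0.45 and -0.89, and in the remaining 3 needled mice between -0.02 and 0.05.

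Single subunits showed how far mouse 1 was from the rest. Ndufc2, an accessory subunit of complex I, stood at 10.69 and 10.70 in controls, 8.68 in mouse 1 and 10.73 in mouse 2. Cox7a2, a subunit of cytochrome oxidase, was at 10.01 and 10.03, then 7.19 and 10.12. Cox5a, another, was at 10.20 and 10.22, then 8.06 and 10.26. Atp5b, the catalytic beta subunit of ATP synthase, was at 12.72 and 12.69, then 11.60 and 12.81. Not all were low: Atp5a1, the alpha subunit of the same enzyme, was at 12.31 and 12.31, then 12.25 and 12.33, and Ndufs1, the largest complex I subunit, was at 10.39 and 10.22, then 10.74 and 10.50.

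The proteasome, which degrades tagged proteins, and the cytosolic ribosome gave the same pattern in mouse 1. Proteasome genes had medians of -0.69 and 0.08, with mouse 1 below and mouse 2 above in 20 of 31, against 15.2% of all genes. Psmb5, the subunit with chymotrypsin-like activity, was at 9.25 and 9.28, then 7.62 and 9.23. Ribosomal protein genes had medians of -0.64 and -0.04. Rps18 was at 11.45 and 11.49, then 9.76 and 11.26, while Rpl38 was high in mouse 1, at 11.12 and 11.16, then 12.10 and 11.02. In hip-needled mouse 1 these lists had medians of -0.70 and -0.52. In the other 4 mice given MPTP the medians of these lists and of the respiratory chain lay between -0.14 and 0.09. The low level thus moves with the arrays that stood apart, and the part that these arrays or their RNA had in it was not tested.

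Antioxidant genes followed mouse 1 as well. Mouse 1 was below and mouse 2 above in 13 of 29, and both were below in 7, against 15.2% and 20.1% of all genes. Mt2, a metallothionein that binds zinc and copper, had the widest gap, at 12.08 and 12.08 in controls, 8.79 in mouse 1 and 12.37 in mouse 2; its neighbour in function, Mt1, had a control mean of 11.99 and stood at 11.93 and 12.02. Sod1, the copper and zinc superoxide dismutase, was at 11.40 and 11.36, then 9.83 and 11.28. Slc7a11, the cystine carrier that feeds glutathione synthesis, was lower in both, at 9.16 and 8.93, then 8.46 and 8.06, a difference of -0.78 ± 0.22 (SE; limma, Benjamini-Hochberg adjusted p = 0.714).

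Of the genes of monoamine breakdown and of familial Parkinson disease, 16 were measured. Both mice were above in 5 and below in 2, against 18.6% and 20.1% of all genes, and the median was 0.13. Maob, the enzyme that activates MPTP, was at 9.14 and 9.08 in controls, 10.72 in mouse 1 and 9.10 in mouse 2, so the higher group mean came from mouse 1 alone. Pink1, a kinase of damaged mitochondria, was at 10.25 and 10.19, then 8.62 and 10.25. Uchl1, a ubiquitin hydrolase of neurons, was at 11.63 and 11.64, then 12.23 and 11.77. Lrrk2, a kinase, was at 7.37 and 7.22, then 8.51 and 7.14.

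Chaperones of the cytosol and of the endoplasmic reticulum (ER) were lower in both mice. Chaperones fold new proteins, and cells raise their genes when unfolded proteins build up: heat shock factor acts on those of the cytosol through the heat shock element, and the transcription factors of the unfolded protein response act on those of the ER through the ER stress element. Of 28 genes both mice lay below both controls in 19 and above in 1, against 20.1% and 18.6% of all genes. The median was -0.32 (-0.57 in mouse 1 and -0.17 in mouse 2). The unadjusted p was under 0.05 in 6, all lower, against 2.1% lower over all genes, and 0 passed after adjustment.

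The promoters of these genes are shown because most members lay below the controls together, with the motif in capitals. The ER stress element, searched on both strands as CCAAT and CCACG with any 9 bases between them, was added after the values were seen. In RefSeq windows from 250 bases before to 50 after a gene's start (mouse build GRCm38.p6) it was found in 0.137% of 27025 genes and in 5 of the 23 listed genes with a window, Hspa5, Hsp90b1, Creld2, Pdia6 and Calr. The list holds genes of the unfolded protein response, which acts through this element, so the count is no independent evidence. In Creld2 the capitals hold the element on the opposite strand.
Creld2, chr15:88819490-88819568, plus strand: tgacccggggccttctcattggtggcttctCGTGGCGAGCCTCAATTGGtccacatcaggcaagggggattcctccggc
Pdia6, chr12:17266461-17266539, plus strand: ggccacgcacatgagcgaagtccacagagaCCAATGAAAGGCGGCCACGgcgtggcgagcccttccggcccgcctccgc
Hspa5, chr2:34771995-34772073, plus strand: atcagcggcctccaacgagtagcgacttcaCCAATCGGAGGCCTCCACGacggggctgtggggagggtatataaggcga

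The heat shock element, searched as GAANNTTC, which reads the same on both strands, was in 9.04% of all genes and in 8 of the 23, among them the following; a match describes the letters only. Hspb1 holds 2.
Hspa1a, chr17:34972223-34972290, minus strand: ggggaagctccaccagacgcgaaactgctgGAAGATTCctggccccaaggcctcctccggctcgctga
Hspb1, chr5:135887772-135887859, plus strand: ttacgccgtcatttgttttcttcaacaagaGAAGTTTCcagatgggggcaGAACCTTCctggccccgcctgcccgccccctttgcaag

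Among ER chaperones, Creld2, a secreted disulfide isomerase, stood at 8.20 and 8.06 in the control mice and at 7.24 and 7.34 in the MPTP mice, a difference of -0.84 ± 0.17 (SE; limma, Benjamini-Hochberg adjusted p = 0.469). Hspa5, the main ER chaperone BiP, was at 11.15 and 11.08, then 9.33 and 10.61. Pdia6, a disulfide isomerase, was at 9.85 and 9.83, then 8.74 and 9.42. The MPTP mice were below the controls in all 3, close together in Creld2 and over 0.6 log2 units apart in the others. Xbp1, a transcription factor of the unfolded protein response, was at 9.75 and 9.71, then 8.82 and 9.14, and Sdf2l1, an ER protein of the same response, at 8.28 and 8.11, then 6.45 and 7.30. Hyou1 and Herpud1 lay near the controls, Herpud1 at 10.19 and 10.17 and then 10.19 and 10.25.

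Among cytosolic chaperones, Hspa1a, the inducible form of Hsp70, was at 7.79 and 7.60 in controls and at 6.29 and 6.79 after MPTP, a difference of -1.15 ± 0.29 (SE). Hspb1, a small heat shock protein, was at 7.45 and 7.37, then 5.75 and 6.90. Dnajb1, a partner of Hsp70, was at 8.90 and 8.85, then 7.48 and 8.38. Hspa8, the form made without stress, was close to the controls, at 12.67 and 12.73, then 12.56 and 12.66. The list's median in the needled mice was -0.20 and 0.04 after acupoint needling and -0.52 and -0.14 after hip needling, so that the lowest values were again in the arrays that stood apart.

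**Figure D5:**
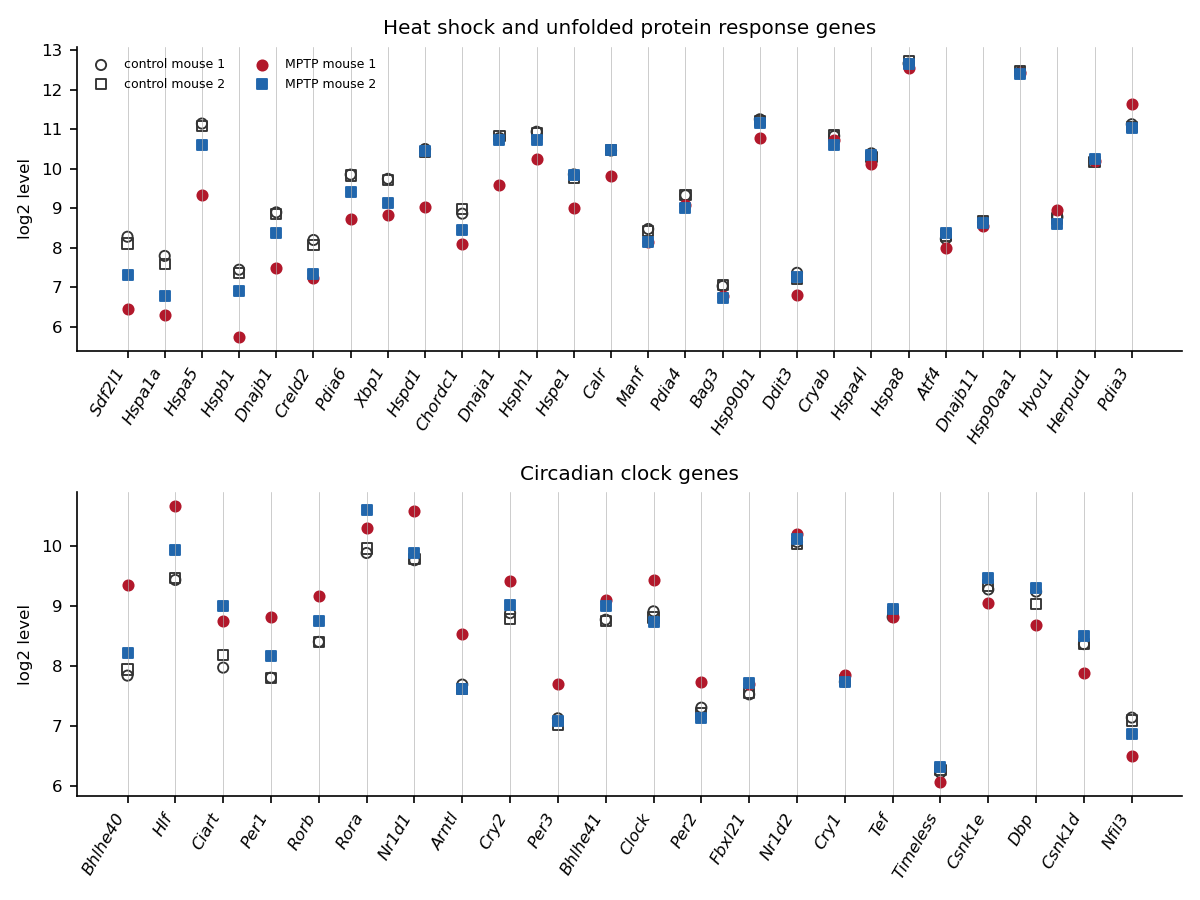
Log2 level on each of the 4 arrays (vertical axis) of the 28 heat shock and unfolded protein response genes (upper panel) and the 22 circadian clock genes (lower panel), each ordered by the mean difference; open symbols are control mice, filled symbols MPTP mice. Sdf2l1, Hspa1a, Hspa5 and Hspb1 lie lowest in MPTP mouse 1, and Ciart, Rorb, Rora and Per1 lie above both controls in both MPTP mice.

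Clock genes were higher in both mice in 11 of 22 and lower in 1, against 18.6% and 20.1% of all genes. Their median was 0.26 (0.43 in mouse 1 and 0.14 in mouse 2). The clock is a loop in which CLOCK and BMAL1, from Clock and Arntl, switch on Per, Cry and other genes through the E-box, and the products shut the loop down; PAR factors such as DBP act through the D-box. The E-box CACGTG, which reads the same on both strands, was in 8.09% of all genes and in 5 of the 19 listed genes with a window (Per1, Cry1, Tef, Bhlhe41 and Ciart). The D-box TTATGTAA, on either strand, was in 1.11% of all genes and in 2 of the 19 (Per3 and Timeless). The list holds genes of this loop, so these motif counts are no independent evidence. The stretches of Per1 and Ciart are shown because both genes were higher in both MPTP mice, with each E-box in capitals.
Per1, chr11:69098753-69098818, plus strand: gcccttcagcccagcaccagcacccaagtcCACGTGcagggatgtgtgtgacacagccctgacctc
Ciart, chr3:95882237-95882374, minus strand: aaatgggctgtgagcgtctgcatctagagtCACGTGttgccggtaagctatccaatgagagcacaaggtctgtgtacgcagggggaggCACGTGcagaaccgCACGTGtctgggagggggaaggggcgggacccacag

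Ciart, a repressor within the loop that holds 3 E-boxes here, stood at 7.98 and 8.19 in the control mice and at 8.76 and 9.00 in the MPTP mice, a difference of 0.79 ± 0.19 (SE; limma, Benjamini-Hochberg adjusted p = 0.624). Per1 was at 7.81 and 7.81, then 8.82 and 8.17. Some clock genes are shared with other lists: Per1 with glucocorticoid targets, Rora with thalamic projection neurons and Rorb with cortex and hippocampus. Hlf, a PAR factor, was at 9.44 and 9.47, then 10.66 and 9.94. Not every member followed: Dbp, a PAR factor like Hlf, was at 9.24 and 9.03, then 8.68 and 9.30, and Arntl at 7.69 and 7.63, then 8.54 and 7.62. Tef and Cry1, which also hold an E-box, lay within 0.2 log2 units of the control mean in both mice. The hour of day of dissection is not given in the sources used here.

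Glucocorticoid target genes were above the controls in both mice in 8 of 17 and below in 1, against 18.6% and 20.1% of all genes. In a further 7 mouse 1 was below and mouse 2 above, against 15.2% of all genes. The medians were -0.0022 in mouse 1 and 0.28 in mouse 2. Fkbp5, which restrains the glucocorticoid receptor, was at 7.82 and 7.71, then 8.56 and 8.73, and Sgk1, a kinase, at 9.43 and 9.35, then 9.73 and 10.14. Both are well-known targets, and both groups were apart. Tsc22d3, another target, lay on either side, at 8.14 and 8.27, then 7.82 and 8.32. The differences of Fkbp5 and Sgk1 were 0.88 ± 0.22 and 0.54 ± 0.20 (SE).

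Immediate early genes, which neurons switch on within minutes of firing, were mixed. Both mice were below the controls in 10 of 24 and above in 2, against 20.1% and 18.6% of all genes. The mean was higher in 11 and lower in 13, and the median was -0.03. Fos was at 7.13 and 6.94, then 6.57 and 6.51, and Fosl2 at 6.96 and 6.99, then 6.07 and 6.54. Arc was at 7.77 and 7.83, then 7.67 and 7.41. Of the feedback inhibitors of MAP kinase signalling, Dusp4, a phosphatase of MAP kinases, was at 7.18 and 7.09, then 6.31 and 6.57, and Spry4, a Sprouty protein, at 7.49 and 7.33, then 7.09 and 6.94. Both mice were below the controls in 6 of 15 of these and above in 2, against 20.1% and 18.6% of all genes.

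Receptors of glutamate were mostly higher in mouse 1, with a median of 0.43, and near the controls in mouse 2, at -0.01. Both mice were above in 8 of 21 and below in 0, against 18.6% and 20.1% of all genes. Grm4, a metabotropic receptor, stood at 7.87 and 7.82 in controls and at 8.73 and 8.57 after MPTP, and Grin2b, an NMDA receptor subunit, at 9.23 and 9.36, then 10.21 and 9.84. Grin2a, another, was at 8.57 and 8.57, then 10.17 and 9.10. Grm4 lay 0.88 above the control mean in mouse 1 and 0.72 above it in mouse 2.

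GABA receptor genes went both ways, with both mice above in 5 of 14 and below in 5, against 18.6% and 20.1% of all genes. Gabra4, a subunit of extrasynaptic receptors in thalamic relay neurons, was at 9.84 and 9.83, then 10.36 and 10.42, and Gabbr2, a subunit of the metabotropic receptor, at 10.33 and 10.31, then 10.94 and 10.82. Gabra2 was at 8.11 and 8.06, then 7.56 and 7.60, and Gabre at 6.20 and 6.10, then 5.51 and 5.41. In each of these 4 genes the MPTP mice were within 0.2 log2 units of each other and over 0.4 from the nearest control.

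Ion channels that shape thalamic firing were higher in both mice in 10 of 22 and lower in 2, against 18.6% and 20.1% of all genes. Their median was 0.24 (0.34 and 0.23). Cacna1g, the T-type calcium channel behind burst firing, was at 8.31 and 8.41, then 8.71 and 9.07. Kcnc2 and Kcnc1, potassium channels of fast-firing neurons, were at 9.96 and 10.07 and then 11.00 and 10.68, and at 8.47 and 8.43 and then 8.88 and 8.97. Kcnq3, a subunit of the M-current, was at 9.22 and 9.30, then 9.80 and 9.74. The pacemaker channel Hcn2 parted the mice, at 9.71 and 9.75, then 9.10 and 9.95.

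Glial lists differed in how the 2 mice lay. Among 24 astrocyte genes both mice were above in 3 and below in 7, against 18.6% and 20.1% of all genes, with a median of -0.14. Gfap, the filament protein of astrocytes that is raised in many injuries, was lower in both MPTP mice, at 9.25 and 9.05 in controls and 8.38 and 8.55 after MPTP, a difference of -0.69 ± 0.32 (SE; limma, Benjamini-Hochberg adjusted p = 0.714). Aqp4, the water channel of astrocyte endfeet, was at 10.25 and 10.16, then 9.85 and 9.88. Among 14 markers of reactive astrocytes both mice were below in 7 and above in 0, against 20.1% and 18.6% of all genes. In these markers mouse 2 was below the control mean in all 14 and mouse 1 in 7, with a median difference of -0.29. Of these, Vim, vimentin, was at 9.44 and 9.30, then 9.14 and 9.00, and Serpina3n at 8.57 and 8.20, then 8.67 and 8.02.

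Microglial genes were on opposite sides in many members, with mouse 1 above and mouse 2 below in 10 of 22. Both were below in 5 and above in 0. Over all genes these shares were 18.2%, 20.1% and 18.6%. The medians were 0.19 and -0.28. Cx3cr1, the fractalkine receptor, was lower in both, at 8.13 and 8.08, then 7.71 and 7.70. Aif1, the protein Iba1 by which microglia are stained, was at 6.12 and 5.80, then 5.89 and 5.72. Cd68, a lysosomal protein of phagocytes, was at 6.95 and 7.03, then 8.42 and 6.97, high in mouse 1 alone.

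Genes of blood vessels were higher in both mice in 9 of 27 and lower in 6, against 18.6% and 20.1% of all genes. Slco1a4 and Slco1c1, organic anion transporters of the blood-brain barrier, were at 8.92 and 8.86, then 10.50 and 9.25, and at 9.03 and 8.90, then 9.55 and 9.37. Acta2, the actin of smooth muscle, was lower, at 8.51 and 8.34, then 8.06 and 7.80, and Cldn5, the claudin of brain endothelium, was at 8.04 and 8.18, then 6.89 and 7.96. Genes of ependymal cilia, which line the ventricles, were higher in mouse 1 (median 0.78) than in mouse 2 (0.05). Of these 13 of 23 passed the filter. Both mice were above in 5 of the 13 and below in 2, against 18.6% and 20.1% of all genes. Nme5 was higher in both, at 6.62 and 6.76, then 8.37 and 6.95, and Foxj1 lower, at 6.64 and 6.66, then 6.04 and 6.45. Dynlrb2, 1 of the 5, had a control mean of 5.54, under the filter's level, and passed it through other groups.

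Trophic factors and their receptors had both mice below in 6 of 16 and above in 1, against 20.1% and 18.6% of all genes. Their median was -0.22. Gdnf, which supports dopaminergic neurons, was dim and close to the controls, at 5.84 and 6.10, then 5.84 and 5.86. Bdnf was at 6.64 and 6.84, then 5.81 and 6.58. Gfra2, a receptor for neurturin, was at 8.24 and 8.19, then 7.50 and 7.96.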

How the data were processed

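Per the labels' protocols, 300 ng RNA from the thalamic tissue of each of 8 mice was labelled for an Affymetrix whole-transcript array. The authors deposited log2 levels, 1 column per array, made with Affymetrix Expression Console and RMA per the submitters' processing notes; their versions are not given in the sources used. Because RMA gives all arrays a common distribution, it hides a difference in total RNA and narrows those of dim probe sets. Precision is limited by 2 arrays a group; no counts or depths exist for arrays.

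Of 35557 probe sets, 21789 had 1 gene symbol in the platform annotation, 1621 several (tested, not named) and 12147 were unnamed here. The dimmest 40% by mean over 8 arrays (under 5.63) and the unnamed were left out. Group means were fitted to all 8 arrays in limma 3.58.1 (R 4.3.3) with lmFit and eBayes (4 residual and 2.53 prior degrees of freedom). The two-sided p of all 15791 probe sets was adjusted with the Benjamini-Hochberg method, at a threshold of 0.05. The fit was tested on simulated data with independent errors (15791 probe sets, MPTP against control): 46.3% of 67 planted 2-fold, 76.1% of 67 planted 4-fold and 92.4% of 66 planted 8-fold differences were recovered, with 9 false calls; real arrays that stand apart together are not in that simulation.

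The comparison, the 37 gene lists (852 symbols, 710 with a probe set that passed, 50 in several lists) and the rules were chosen with earlier results of these data known. Named genes were the 8 higher and 8 lower genes of smallest p whose groups do not overlap, the 8 and 8 whose nearer MPTP mouse lay farthest outside the controls, 6 and 6 with the mice on opposite sides, up to 4 members of smallest p per list, all members of lists described in full, and Th, Slc6a3, Slc18a2, Ddc, Maob, Gfap, Aif1, Mbp, Fos, Ttr and Gdnf; a further gene of that rule is not reported here. Other list members were picked after their values were seen. Same-numbered control and MPTP mice had deviations that correlated at r = 0.19; over the other pairs of groups r ran from -0.28 (MPTP and acupoint mice) to 0.82 (MPTP and hip-needled mice), and since the labels tie the numbers to nothing shared, the mice were not taken as paired. Promoters are from RefSeq (GRCm38.p6).

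The alternatives were cyclic loess or a second quantile normalization, omitting the brightness filter or leaving out the dimmest 60%, trend and robust eBayes, array weights, the 4 arrays alone, a block for the mouse number, a single probe set for each gene, 6 arrays, a term for the 2 arrays that stood apart, and leaving out each mouse.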

Additional observations from a re-analysis of the deposited data

How the results depend on the processing

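No probe set passed the adjusted threshold under any alternative except the 6-array fit (57 probe sets) and the fit with a term for the 2 arrays that stood apart (12); these differ by construction, since the spread of those arrays leaves the error. The count at an unadjusted p under 0.05 was 836, and it was 1299 without the brightness filter, 536 with the dimmest 60% left out, 539 with array weights, 484 on the 4 arrays alone, 2502 on 6 arrays and 1936 with the term. Leaving out 1 mouse at a time gave 247 to 5573: 247 and 280 when a control mouse was left out, 588 and 5573 for MPTP mouse 1 and mouse 2, 504 for either acupoint mouse and 1017 for either hip-needled mouse. With the mouse number as a replicate block, 0 passed (smallest adjusted p = 0.161, limma with Benjamini-Hochberg) and 1089 had an unadjusted p under 0.05; the labels do not pair the mice. Groups did not overlap in 38.0% to 39.0% of probe sets under other normalizations and filters.

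The median of the cortex and hippocampus list, near 0, ran from -0.20 to 0.40 over single mice left out and was -0.01 after a second quantile normalization, the only change of sign of a list under a scaling. A median was called moved when it shifted by more than the members' median SD between the MPTP mice, a limit that is wide in lists that part them. With MPTP mouse 1 or mouse 2 left out, the striatal median of 0.26 became -0.52 or 0.90. That of complexes II to V, -0.41, became 0.09 or -0.94. Other medians called moved were those of meninges (-0.61 to -0.36 over single mice, -0.20 with the dimmest 60% left out), choroid plexus (1.75) and midbrain and ventral neighbours (0.11), the last 2 with the dimmest 60% left out, when fewer members remain. So was the serotonergic median, at -0.03, but -0.29 without the filter and 0.80 with the dimmest 60% left out. Of that list 4 genes passed the filter, and 0.80 is the difference of Maob alone.

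Many alternatives change only the error or the set of probe sets and leave the difference of a named gene as it is. It could change only under a new normalization, on 6 arrays, with the term or with a control or MPTP mouse left out. Genes named only for MPTP mice on opposite sides were not counted, and many others were chosen with both mice on 1 side. Of 2978 values of 159 named genes under the alternatives, 2962 kept their direction, much of which was thus fixed in advance. The 16 that did not were in 8 genes with differences that rest on 1 mouse. On 6 arrays, which is also the value without MPTP mouse 1, they were Cox5a 0.045, Foxp1 -0.023, Maob -0.012, Ptprc -0.13 (-0.11 with the term), Sh3rf2 -0.11 and Slc4a1 0.077. Over single mice left out the ranges were -0.31 to 0.0060 for Aif1, -2.15 to 0.045 for Cox5a, -0.023 to 1.30 for Foxp1, -0.25 to 0.012 for Gdnf, -0.012 to 1.61 for Maob, -0.13 to 0.45 for Ptprc, -0.11 to 2.18 for Sh3rf2 and -0.41 to 0.077 for Slc4a1. Dim probe sets, near the array's background, limit what can be said of genes such as Gdnf, F5 and Steap1.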

Other observations

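Genes with MPTP mouse 2 above and MPTP mouse 1 below both controls were chosen by the size of the split and belong to no list. Cirbp, an RNA-binding protein induced by cold, stood at 9.73 and 9.75 in the control mice, 8.87 in MPTP mouse 1 and 10.32 in MPTP mouse 2. Bok, a member of the Bcl-2 family, was at 8.20 and 8.42, then 7.52 and 8.90. Slc6a7, the brain's proline transporter, was at 8.76 and 8.70, then 8.01 and 9.21, and Ggt7, of the gamma-glutamyltransferase family, at 8.97 and 9.01, then 8.09 and 9.61. Ctxn3, a cortexin, was at 7.76 and 7.70, then 7.15 and 8.52, and Lhfp at 8.00 and 8.07, then 7.45 and 8.52. The group means of all 6 lay within 0.2 log2 units of the controls, although each mouse was about 0.4 or more away.

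Genes of cell death, of inflammation and of myelin showed no common direction. For comparison, both MPTP mice lay above both controls in 18.6% of all genes and below in 20.1%. In the list of cell death and the p53 response both MPTP mice were above the controls in 3 of 13 and below in 3, with a median of -0.05; Ccng1, a cyclin and p53 target, was at 9.95 and 9.84, then 10.97 and 10.12, and Bcl2, which protects from cell death, at 7.76 and 7.69, then 7.45 and 7.47. Of 14 cytokine and interferon genes both were above in 3 and below in 4. Among the 3, Ccl3 had a control mean of 5.33, under the filter's level, and passed it through other groups. Il33, an alarmin of oligodendrocytes and astrocytes, was at 9.75 and 9.79, then 10.65 and 10.01. A further 10 listed genes did not pass the filter or had no probe set. In 23 myelin genes both were above in 3 and below in 6, with a median of -0.11. Mbp, myelin basic protein, stood at 11.72 and 11.71 in controls and 11.62 and 11.67 after MPTP. Opalin, on the same list, was higher in both, at 7.74 and 7.61, then 8.35 and 8.07. Of 15 genes of oligodendrocyte precursors both were above in 2 and below in 3, with a median of -0.07. Gpr17, a receptor of these cells, was lower in both, at 7.97 and 8.07, then 7.33 and 7.43. Pdgfra, on the same list, was higher in both, at 8.36 and 8.35, then 9.16 and 8.55. Of 15 blood genes 3 passed the filter, and those 3 lay within the control range in at least 1 MPTP mouse.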
